A study of Rattus norvegicus with 24 samples.

Results

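Bile acid synthesis and transport in the rat liver was described through 10 genes, chosen by name: Cyp7a1, Cyp8b1, Cyp27a1, Cyp7b1, Baat, Slc10a1, Abcb11, Abcb4, Nr1h4 and Nr0b2. All 10 had a probe on the array that was kept after a filter on weak signals, among 18643 genes tested in all. Liver RNA of 24 male Wistar rats, 6 for each of 4 diets, was read on single-colour Agilent arrays, each rat having an array of its own. Feeding began at 6 months of age, before which the animals ate ordinary rodent pellets. It lasted 12 weeks, on purified diets of the AIN76A type in which starch and dextrin evened out the carbohydrate, and the labels give an age of 9 months. The low copper diets held under 0.3 mg of copper per kg, with 30% or 10% sucrose. The adequate copper diets held 125 mg of copper per kg, which the source names of the samples call high, with 30% or 10% sucrose. Adequate copper with 10% sucrose was the control diet.

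Bile acids are made from cholesterol in hepatocytes. The classical route starts with Cyp7a1, the rate-limiting 7-alpha-hydroxylase, and Cyp8b1, the 12-alpha-hydroxylase, sends the product towards cholic acid. The alternative route starts with Cyp27a1, the mitochondrial sterol hydroxylase, and goes on through Cyp7b1, the oxysterol 7-alpha-hydroxylase. Baat joins the finished acid to taurine or glycine. Slc10a1 takes bile acids up from the blood, Abcb11 pumps them into the canaliculus, and Abcb4 moves phosphatidylcholine into bile beside them. Nr1h4, the bile acid receptor FXR, induces Nr0b2, the repressor SHP, which is known to lower transcription of Cyp7a1 and Cyp8b1.

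Levels are log2 signals relative to the 75th percentile of the array, so that 1 unit is a doubling of signal. Levels of different probes were combined or compared only to pick the brightest probe of a gene and to average or sum marker lists. Such a sum is led by its brightest probes. The probes were 60-mers, and the files place that of Cyp8b1 at chr8:127019903-127019962, that of Baat at chr5:66245796-66245855 and the brighter probe of Nr1h4 at chr7:26189988-26190047, all in rn4. The 24 arrays lay on 3 slides of 8. Slide 1 held only 30% sucrose, with 6 rats fed low and 2 fed adequate copper. Slide 2 held the other 4 rats of the latter diet and 4 fed low copper with 10% sucrose, and slide 3 the remaining 2 of these with all 6 control rats. Adequate copper with 30% sucrose therefore shared no slide with the control diet. The 75th percentile lay between 433 and 1284 units of signal, and between 59.9% and 73.4% of probes were well above background. The 7 hepatocyte markers were all measured, with mean levels between 5.58 and 6.39 over the 24 rats. None passed the threshold given below between the diets with adequate copper, which does not show that they were unchanged. Differences were tested with limma, and adjusted p-values were taken over all 18643 genes at a threshold of 0.05. The labels give each sample as a separate rat.

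The promoters of the 2 genes that passed that threshold are shown, since the differences in their signal lead the results. They are the 250 bases before the gene start on the gene's strand, from RefSeq in GRCr8, at chr8:130457593-130457842 (minus strand) for Cyp8b1 and chr5:68656138-68656387 (minus strand) for Baat. Capitals mark matches to the motifs searched.
Cyp8b1: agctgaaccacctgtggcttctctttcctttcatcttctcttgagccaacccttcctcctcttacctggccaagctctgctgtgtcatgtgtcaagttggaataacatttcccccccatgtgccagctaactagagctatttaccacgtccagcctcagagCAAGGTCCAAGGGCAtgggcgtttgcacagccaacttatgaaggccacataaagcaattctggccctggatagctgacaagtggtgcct
Baat: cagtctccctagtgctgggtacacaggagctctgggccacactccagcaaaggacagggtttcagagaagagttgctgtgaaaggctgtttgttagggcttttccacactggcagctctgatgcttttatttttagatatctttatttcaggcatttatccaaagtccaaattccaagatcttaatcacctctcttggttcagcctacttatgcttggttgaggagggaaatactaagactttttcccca

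RefSeq promoters were at hand for 6 of the 10 genes (Cyp8b1, Cyp27a1, Baat, Slc10a1, Abcb4 and Nr0b2), as windows of 300 bases that end 50 bases after the gene start. Both strands were searched for CAAGGTC, the monomer site of NR5A-type receptors, for the nuclear receptor motif AGGTCA, for its direct and inverted repeats with 1 base between the copies and up to 3 letters differing, and for TATAAA. A match to CAAGGTC occurred in Cyp8b1, starting at position -89 from the gene start, and in Cyp27a1 at -235, and in 4.2% of all 33469 promoters. In Cyp8b1 a direct repeat overlapped it from position -87, and such a repeat was also present in Slc10a1 and Nr0b2 and in 24.9% of all promoters. A match to AGGTCA occurred at 2 places each in Cyp27a1 and Slc10a1 and in 16.2% of promoters. The inverted repeat, the form FXR is known to bind, occurred in Slc10a1 and in 12.4% of promoters, and TATAAA in Nr0b2 and in 14.2%. Baat and Abcb4 held none of the 5 motifs in this window. A match is a description of the letters only.

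Between the diets with adequate copper, the members were compared at 30% against 10% sucrose. Cyp8b1 and Baat fell and the other 8 did not pass the threshold. These 2 of 10 stand beside 20.9% of all genes called in that comparison (3888 of 18643). In both directions together, the share of the members is thus close to that of the array as a whole. Most genes called there rose (3426, with 462 falling), whereas both members fell. The median difference over the 10 members was -0.15, beside 0.07 over all genes.

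Cyp8b1 lay at 1.66, 2.21 and 3.51 (lowest, median and highest rat) on the control diet, and at 0.28, 0.98 and 1.53 on adequate copper with 30% sucrose. Every rat on 30% sucrose was thus below every control rat. The mean was 2.31 ± 0.66 (SD, n = 6) on the control diet and 0.96 ± 0.41 (SD, n = 6) on 30% sucrose, a difference of -1.35 (SE 0.36, limma adjusted p = 0.0104) that corresponds to 2.55-fold less signal. With slide as a block in the fit the difference was -0.26 (SE 0.63, adjusted p = 0.9998), and with slide as a random block it was -1.16 (adjusted p = 0.0868). No slide held rats of both diets, so diet and slide cannot be told apart in this comparison. The call was kept in all 24 fits that each left out 1 rat, with differences from -1.48 to -1.11.

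Both low copper diets lay between these diets for Cyp8b1. With 10% sucrose the low copper mean was 1.5 ± 1.03 (SD, n = 6), and with 30% it was 1.41 ± 0.30 (SD, n = 6). From high to low, the order of means was the control diet, low copper with 10% sucrose, low copper with 30% and adequate copper with 30%. No neighbours in that order differed past the threshold (adjusted p = 0.141, 0.952 and 0.639). The rats on low copper with 10% sucrose ranged from 0.07, the lowest of all 24 rats, to 2.57, and so overlapped every other diet.

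Within a slide, copper could be compared for Cyp8b1 at 30% sucrose on slide 1 and at 10% on slide 3. On slide 1 low copper was 0.38 higher (mean 1.41 in 6 rats against 1.04 in 2, exact permutation p = 0.107, two-sided). On slide 3 the means were 2.25 in 2 rats on low copper and 2.31 in the 6 control rats (exact permutation p = 0.964), and 28 regroupings allow no p below 0.0357. On slide 2, where both copper and sucrose differed, the 4 rats fed adequate copper with 30% sucrose had a mean of 0.92 and the 4 fed low copper with 10% a mean of 1.13 (exact permutation p = 0.743).

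Baat, the conjugating enzyme, had the smallest SD between rats of the 10 genes. It lay at 6.70, 6.80 and 6.97 (lowest, median and highest) on the control diet and at 6.24, 6.37 and 6.74 on adequate copper with 30% sucrose. Of the 6 rats on 30% sucrose, 5 were below all control rats, and rat 2 lay among them. The difference was -0.40 (SE 0.10, limma adjusted p = 0.00676), or 1.32-fold less signal. In a fit that blocked on slide it was -0.24 (SE 0.19, adjusted p = 0.9998), and with slide as a random block -0.37 (adjusted p = 0.0554). It also missed the threshold on the authors' values (-0.38, adjusted p = 0.0508).

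**Figure D1:**
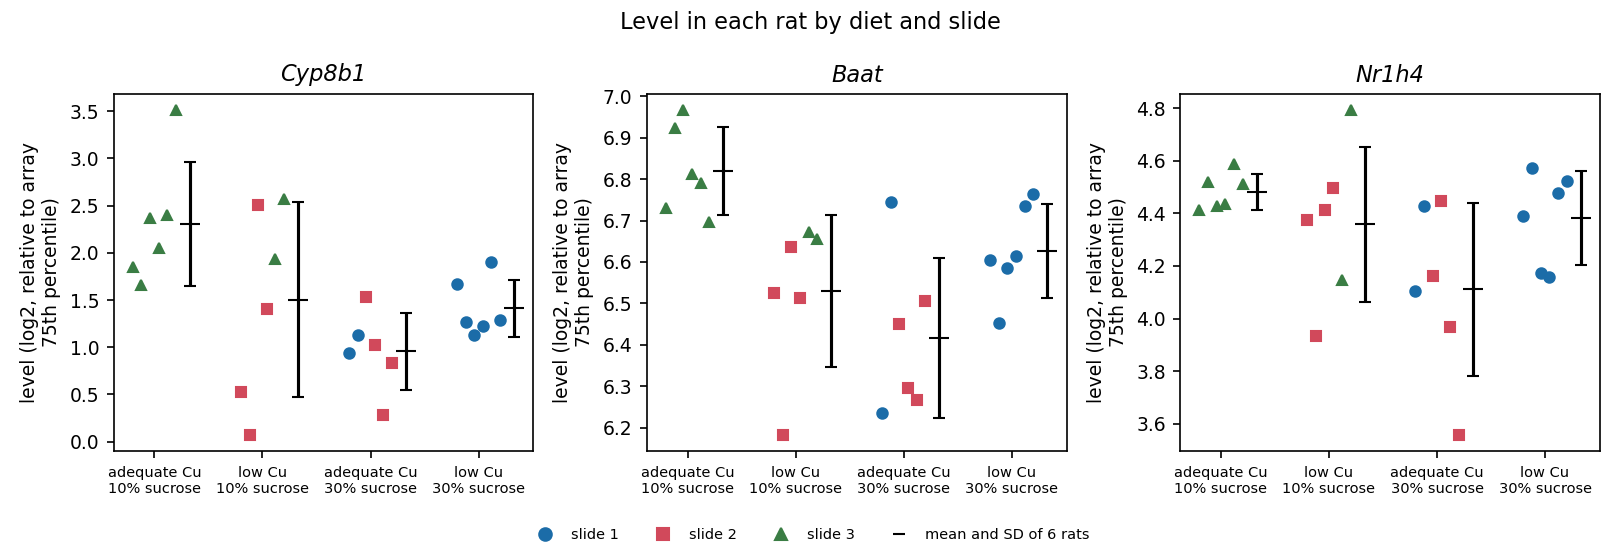
Level of Cyp8b1, Baat and Nr1h4 in each of 24 rats (log2 signal relative to the 75th percentile of the array) by diet, with symbols for the 3 slides and bars for the mean and SD of 6 rats. All control rats (adequate copper, 10% sucrose) were on slide 3, and their Cyp8b1 levels, from 1.66 up, lay above all rats on adequate copper with 30% sucrose.

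Low copper was compared with adequate copper at 10% sucrose next, with the control rats again as the reference, so that this comparison shares its controls with the one above. Baat fell, and the other 9 members did not pass the threshold, beside 18.6% of all genes called (3358 up and 111 down). Baat lay at 6.18, 6.58 and 6.67 (lowest, median and highest) on low copper with 10% sucrose, so that all 6 rats were below all 6 control rats. The difference was -0.29 (SE 0.10, adjusted p = 0.0474), just past the threshold. The call was kept in 8 of 24 fits that each left out 1 rat and lost in the other 16 (highest adjusted p = 0.143). Blocking on slide gave -0.16 (adjusted p = 0.942), and on slide 3 alone the 2 rats on low copper had a mean of 6.66 against 6.82 in the 6 control rats (exact permutation p = 0.0714). Cyp8b1 differed by -0.80 (SE 0.36, adjusted p = 0.141), with 4 of 6 rats below the control mean.

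The copper difference of Baat depended on the sucrose level in the fit. At 30% sucrose Baat was 0.21 higher on low copper (SE 0.10, adjusted p = 0.506), and at 10% it was lower, as above. The interaction, which is the copper difference at 30% minus that at 10% sucrose, was 0.50 (SE 0.14, limma adjusted p = 0.0155). Baat was the only member called there, upward, beside 20.8% of all genes (361 upward and 3523 downward). In a fit that blocked on slide the interaction was 0.29 (adjusted p = 0.535), and it also missed the threshold after quantile normalization (adjusted p = 0.0649) and on the authors' values (adjusted p = 0.0684). For Cyp8b1 the interaction was 1.26 (SE 0.51, adjusted p = 0.083).

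The remaining comparisons called no member. Of all genes, 0% were called for mean copper (1640 had an unadjusted p under 0.05), 0% for mean sucrose (2013), 0% for copper at 30% sucrose (1839), 0% for sucrose at low copper (1786) and 1.76% for both changes together against the control diet (328 genes). At an unadjusted p under 0.05, the members were Cyp8b1 and Baat for mean sucrose (-0.72 and -0.15, adjusted p = 0.367 and 0.446), Baat for copper at 30% sucrose, and Cyp8b1 for both changes (-0.89, SE 0.36, adjusted p = 0.189). For both changes Baat differed by -0.19 (SE 0.10, adjusted p = 0.341).

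Nr1h4, the bile acid receptor, had 2 probes, which gave different calls between the diets with adequate copper. The brighter probe, which stood for the gene, lay at 4.41, 4.47 and 4.59 (lowest, median and highest) on the control diet and at 3.56, 4.13 and 4.45 on 30% sucrose. The groups overlapped, and the difference was -0.37 (SE 0.14, adjusted p = 0.0662). The second probe, at chr7:26189760-26189819 in rn4, lay at 1.71, 1.92 and 2.20 on the control diet and at 0.91, 1.41 and 1.70 on 30% sucrose, with no overlap. Its difference was -0.52 (SE 0.14, adjusted p = 0.012 in a fit of every kept probe), and with slide as a block -0.56 (SE 0.27, adjusted p = 0.9998). The brighter probe gave -0.28 with slide as a block (SE 0.27). It passed the threshold after normexp background correction (-0.47, adjusted p = 0.0295) and in 4 of 24 fits that each left out 1 rat. In the other comparisons its differences were -0.12 for copper at 10% sucrose, 0.27 for copper at 30% and 0.40 for the interaction, with adjusted p-values of 0.651, 0.523 and 0.17.

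**Figure D2:**
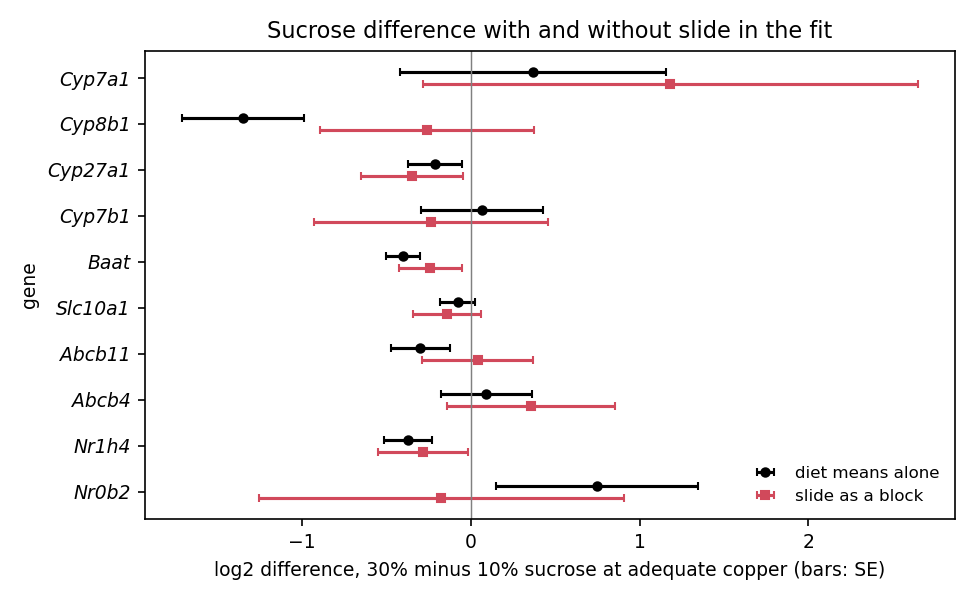
Difference between 30% and 10% sucrose at adequate copper for the 10 genes (log2, bars are SE), fitted on diet means alone (black circles) and with slide as a block (red squares). Cyp8b1 moved from -1.35 to -0.26 and Baat from -0.40 to -0.24 when slide was in the fit.

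Cyp7a1, the enzyme that sets the pace of the classical route, was weak on this array and varied more between rats of 1 diet than any other member. Its lowest, median and highest levels were -4.80, -4.2 and -0.68 for the control diet and -5.35, -2.99 and -1.31 for adequate copper with 30% sucrose. For low copper they were -6.61, -3.34 and -2.65 with 10% sucrose and -5.11, -3.58 and -1.06 with 30%. The 4 diets overlapped over most of their range. Cyp7a1 was well above background in 22 of 24 rats, the exceptions being rat 1 fed adequate copper with 30% sucrose and rat 1 fed low copper with 10%, which were also the lowest levels measured. The sucrose difference at adequate copper was 0.37 (SE 0.79, adjusted p = 0.792), with a 95% confidence interval from -1.26 to 2.0. The copper difference at 10% sucrose was -0.26 (SE 0.79, adjusted p = 0.882). That interval for sucrose takes in both a fall and a rise of more than 2-fold, so differences of that size were not detectable with this spread.

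Nr0b2, the repressor induced by FXR, was the next most variable member. It lay at 1.83, 3.29 and 4.96 (lowest, median and highest) on the control diet and at 1.96, 4.2 and 5.16 for adequate copper with 30% sucrose. For low copper it lay at 2.06, 3.47 and 5.11 with 10% sucrose and at 1.62, 3.86 and 4.35 with 30%. Each diet held rats that were low and rats that were high. The sucrose difference at adequate copper was 0.75 (SE 0.60, adjusted p = 0.417, confidence interval -0.50 to 1.99), and the copper difference at 10% sucrose was 0.23 (SE 0.60, adjusted p = 0.862).

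**Figure D3:**
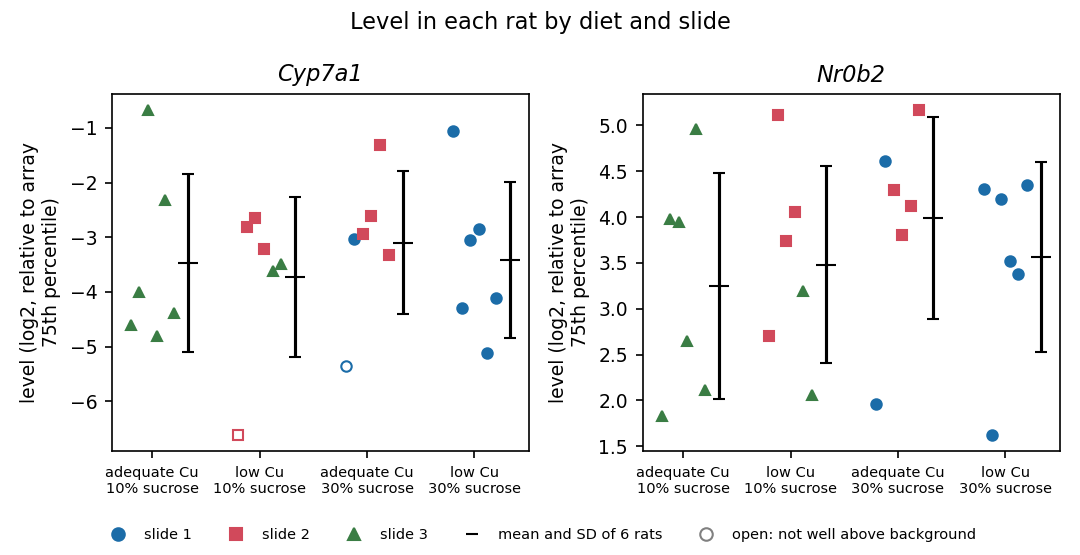
Level of Cyp7a1 and Nr0b2 in each of 24 rats (log2 signal relative to the 75th percentile of the array) by diet, with symbols for the 3 slides, bars for the mean and SD of 6 rats, and open symbols for the 2 rats in which Cyp7a1 was not well above background. Both genes spread over several log2 units within every diet.

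Between rats of the same diet, the SD of Cyp7a1 was 1.46, larger than that of 99.8% of the genes tested. Its widest range in 1 diet with all rats well above background was on the control diet, where the highest rat had 17.4 times the signal of the lowest. For Nr0b2 the SD was 1.11, larger than that of 99.2% of genes, and its widest range in 1 diet was 9.21-fold, on adequate copper with 30% sucrose. Cyp8b1 and Cyp7b1 had SDs of 0.66 each (92.4% and 92.5% of genes were below them). At the other end, the SDs of Slc10a1 and Baat were 0.16 and 0.15, smaller than those of 91.2% and 92.9% of genes. Cyp27a1, Abcb11, Abcb4 and Nr1h4 had SDs of 0.28, 0.31, 0.49 and 0.24. The hour of sampling is not given in the sources used here.

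Relations between members across the 24 rats were computed after each diet's mean was taken out. For Cyp7a1 and Nr0b2, Pearson's r was 0.58 (permutation p = 0.00708, two-sided, within diets) and Spearman's rho = 0.56 (permutation p = 0.00986). The correlation was positive within each of the 4 diets (0.47 to 0.69), was 0.59 with slide also taken out, and was 0.59 without the 2 rats farthest from the median of Cyp7a1. In all 15 relations were computed, and adjusted over these the p-value was 0.106 for r and 0.148 for rho, so the relation did not pass. Of the 15, 7 were pairs of members chosen at the outset and 8 were added once the spread of both genes had been seen. Over the 7 alone the adjusted p was 0.0496 for r and 0.0690 for rho. The choice of family decides the call for r, and the value over all 15 is the one that covers every relation looked at.

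The other 6 pairs of members had r between -0.34 and 0.35 and none passed (adjusted p of at least 0.632 over the 15). They were Cyp7a1 with Cyp8b1 (r = 0.10) and with Cyp7b1 (0.35), Nr0b2 with Nr1h4 (-0.34) and with Abcb11 (0.16), Slc10a1 with Abcb11 (-0.09) and Cyp7b1 with Cyp27a1 (-0.05). Cyp7a1 and Nr0b2 were each set against the clock genes Dbp, Nr1d1, Arntl and Per2, with r between -0.30 and 0.23 and no relation past the threshold.

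**Figure D4:**
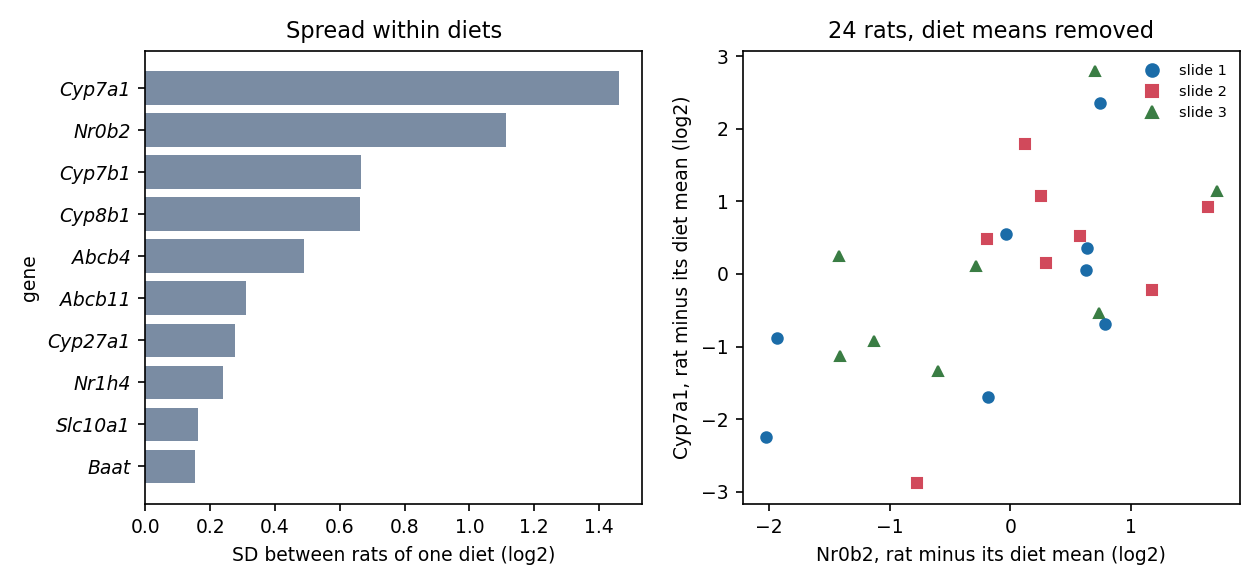
Left, the SD between rats of the same diet for the 10 genes (log2), from 0.15 for Baat to 1.46 for Cyp7a1. Right, Cyp7a1 against Nr0b2 in 24 rats, each as the rat's level minus its diet mean (log2), with symbols for the 3 slides (r = 0.58, adjusted p = 0.106 over 15 relations).

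The enzymes of the alternative route showed no difference past the threshold. Cyp27a1 had means of 2.91 ± 0.32 (SD, n = 6) on the control diet and 2.69 ± 0.18 (SD, n = 6) with 30% sucrose at adequate copper, a difference of -0.21 (confidence interval -0.54 to 0.11, adjusted p = 0.374). On low copper its means were 2.80 ± 0.29 and 2.90 ± 0.30 (SD, n = 6 each) with 10% and 30% sucrose. Cyp7b1 had means of 0.23 ± 0.46 on the control diet and 0.29 ± 1.04 on adequate copper with 30% sucrose (SD, n = 6 each). Its difference was 0.07 (confidence interval -0.68 to 0.82, adjusted p = 0.923), and the sign turned when any 1 of 3 particular rats was left out or slide was in the fit. The spread of Cyp7b1 was widest on adequate copper with 30% sucrose, from -1.0 to 1.42.

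The transporters also held no call. Slc10a1, the uptake carrier, stayed within 4.53 and 5.19 in all 24 rats, and its sucrose difference at adequate copper was -0.08 (confidence interval -0.29 to 0.14, adjusted p = 0.652). Abcb11, the bile salt export pump, had means of 1.88 ± 0.26 on the control diet and 1.58 ± 0.32 on adequate copper with 30% sucrose (SD, n = 6 each). The difference was -0.30 (confidence interval -0.66 to 0.06, adjusted p = 0.247), and with slide as a block 0.04. Abcb4, the phospholipid flippase, had means of -0.72 ± 0.27 and -0.63 ± 0.77 on these diets (SD, n = 6 each), a difference of 0.09 (confidence interval -0.47 to 0.65, adjusted p = 0.855). On low copper the means of Abcb11 were 1.69 ± 0.26 and 1.72 ± 0.38, and those of Abcb4 -0.66 ± 0.29 and -1.03 ± 0.46 (SD, n = 6 each, 10% and 30% sucrose).

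Other genes of bile acid metabolism were taken from 3 lists. Of the synthesis and conjugation list, 14 of 17 names were measured, and between the diets with adequate copper 3 were called, 2 lower and 1 higher, with a median difference of -0.25. The share called over all genes was 20.9% there, as above, and the counts of all 3 lists are to be read against it. Hsd3b7, the steroid dehydrogenase that acts after Cyp7a1, fell by 0.87 (SE 0.21, adjusted p = 0.00498), with all 6 rats on 30% sucrose below the control mean. Acox2, the peroxisomal oxidase that shortens the side chain, fell by 0.86 (SE 0.30, adjusted p = 0.0414), but without control rat 2 the difference was -0.54 (adjusted p = 0.0997). Ch25h, the cholesterol 25-hydroxylase, which is also known as an interferon-induced gene of macrophages, was well above background in only 3 of 6 control rats and in 6 of 6 on 30% sucrose. Its fitted difference of 1.20 (SE 0.35, adjusted p = 0.018) therefore rests in part on signals that were not above background, and without control rat 4 it missed the threshold (0.97, adjusted p = 0.0522). In a fit that blocked on slide the differences of Hsd3b7, Acox2 and Ch25h were -0.51, -0.87 and 1.33, each with an adjusted p of 0.9998.

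Of the transport list, 10 of 19 names were measured and 2 were called higher, with a median of 0.21. Both, Slc10a2 and Fabp6, are best known from the ileum, and both were at the edge of detection. Slc10a2 was well above background in 0 of 6 control rats and 4 of 6 on 30% sucrose. Its fitted difference of 1.16 (limma adjusted p = 0.0162) therefore rests on control signals that were not above background. Control levels were also raised to at least the lowest signal of any probe well above background on the array. The difference was then 0.99, or 1.99-fold. That signal is not the detection limit of this probe, so the value is not a firm lower bound. Fabp6 was well above background in 1 of 6 control rats and 3 of 6 on 30% sucrose, so that most of its values are not measured levels. Its fitted difference (adjusted p = 0.0276) was 0.0010 with slide as a block. Of the regulator list, 14 of 18 names were measured, and 1 fell: Nr2f2, an orphan nuclear receptor, by 0.54 (SE 0.19, adjusted p = 0.0465), a call kept in 12 of 24 fits that each left out 1 rat. In a fit that blocked on slide it was -0.63 (adjusted p = 0.9998). The median over that list was -0.23. For copper at 10% sucrose, where 18.6% of all genes were called, no synthesis gene passed and 1 regulator fell (Nr2f2). The 2 transport genes called, Slc10a2 and Fabp6, were well above background in 0 and 1 of 6 control rats and in 2 and 5 of 6 on low copper. Of 24 fits that each left out 1 rat, the copper call was kept in 17 for Nr2f2, 10 for Slc10a2 and 24 for Fabp6. In the interaction, where 20.8% of all genes were called, 4 of 14 synthesis genes passed (Hsd3b7, Cyp39a1 and Stard5 upward, Ch25h downward). There, 2 of 10 transport genes, the same weak Slc10a2 and Fabp6, and 0 of 14 regulators passed. With 1 rat left out, the interaction call was kept in 23 of 24 fits for Hsd3b7, 16 for Cyp39a1, 8 for Stard5 and 24 for Ch25h. It was kept in 23 for Slc10a2 and 24 for Fabp6.

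Markers of other cells were also counted between the diets with adequate copper, where 20.9% of all genes were called (3426 up and 462 down). The count of each list is to be read against that share, and a count near it is not a result about those cells. Of 5 neutrophil markers, 4 rose, and their summed signal lay between 0.17 and 0.28 in control rats and between 0.43 and 19.1 on adequate copper with 30% sucrose, in units of the 75th percentile of the array. Of 5 measured lymphocyte markers 3 rose, of 7 acute phase genes 2 rose, of 6 markers of portal hepatocytes 2 fell, and of 6 Kupffer cell and 5 endothelial markers none passed. Of 7 stellate cell markers 2 rose, of 5 red cell markers 2 rose, of 9 clock genes 2 rose, and of 6 markers of central vein hepatocytes 1 rose and 1 fell. The bile duct list (1 of 7) and the intestine list (1 of 3) were called through Slc10a2 and Fabp6. For copper at 10% sucrose, where Baat and 18.6% of all genes were called, 2 of 5 neutrophil and 3 of 5 lymphocyte markers rose. The summed neutrophil signal on low copper with 10% sucrose lay between 0.27 and 3.45. In the interaction, where 20.8% of all genes were called, 4 of 5 neutrophil markers, 4 of 5 lymphocyte markers and 2 of 7 acute phase genes were called downward. There, 2 of 6 markers of portal hepatocytes were called upward. Their part in the differences of Cyp8b1 and Baat was not tested. In liver tissue, fewer cells of a type and less RNA per cell cannot be told apart. A fit chosen after seeing the data left out 2 rats taken to stand apart in many genes, by a criterion not given here. They were rat 5 fed adequate copper with 30% sucrose and rat 2 fed low copper with 10%. Their limma array weights were 0.566 and 0.532, and rat 1 (0.562) and rat 6 (0.417) of the same diets had lower ones. Without the 2 rats left out, Cyp8b1 differed by -1.21 (limma adjusted p = 0.0149) and Baat by -0.37 (limma adjusted p = 0.0118) between the diets with adequate copper. The copper difference of Baat at 10% sucrose was then -0.22 (limma adjusted p = 0.137). This fit does not test the part of other cells.

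For each member, the gene most alike across the 24 rats with diet means taken out was found among the other 18642 genes, as a description. For Cyp7a1 these were Zbtb7c (r = 0.79) and Bcl6 (0.77), a transcriptional repressor. For Abcb4 it was Abcb1b (0.85), a drug efflux pump of the same family. Nr0b2 was most like Rnf186 (0.79), Nr1h4 like Anks4b (0.84), Cyp8b1 like Rfc1 (0.86) and Baat like Prpf18 (0.82). Cyp27a1 was most like Ak3 (0.93), Abcb11 like Pbxip1 (0.88), Slc10a1 like Mrpl1 (0.75) and Cyp7b1 like LOC690274 (0.73). All of these share the arrays and their scaling.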

How the data were processed

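The deposited array files hold an intensity per spot (processed, mean, background and background-subtracted signal), read by Agilent Feature Extraction 10.7.3.1 per the file headers. The deposited value table is a score, the authors' quantile-normalized values, whose scale and centring are not given in the sources used here. The deposited spot marks (unit other) were used as marks only. Log2 processed signal minus the 75th percentile of each array was averaged per probe. A probe was kept if well above background on at least 6 arrays, and a gene was represented by its brightest probe. limma 3.58.1 in R 4.3.3 fitted a mean per diet with Benjamini-Hochberg adjustment over 18643 genes in 8 comparisons. The fit was also run on simulated arrays with independent noise and no slide effect, for sucrose at adequate copper only. That run cannot show how slide affects the calls. Relations across rats used 100000 permutations within diets.

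All 10 members, 3 pathway lists and the marker lists were named by rule, with the most alike genes by r. The members and lists were chosen with earlier results of these data known. Alternatives covered background correction, normalization, filter, probes, weights, slide, replicate number and each rat left out. Rats of the same number on different diets were not treated as pairs. With diet means taken out, their median correlation over all genes was 0.0044, beside 0.0022 for rats of different numbers. Of 36 same-number pairs, 12 correlated over 0.1. These correlations cannot show how the rats were assigned.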

Additional observations from a re-analysis of the deposited data

Results flagged for a closer look

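In 3 of 40 groups of 6 rats (10 genes, 4 diets), 1 rat lay far from the other 5, where chance gives about 1 group in 20. Cyp7a1 was lowest at -6.61 in rat 1 on low copper with 10% sucrose, where it was not well above background. Baat was lowest at 6.18 in rat 2 on low copper with 10% sucrose, 1 of the 2 rats taken to stand apart. Nr0b2 was lowest at 1.62 in rat 2 on low copper with 30% sucrose. The copper difference of Baat was 0.50 higher at 30% than at 10% sucrose by the interaction test (limma adjusted p = 0.0155), and 0.29 with slide as a block (adjusted p = 0.535).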

How the results depend on the processing

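All 4 calls were lost with slide in the fit, which cannot tell slide from diet where diets share few or no slides. With slide as a block, and with slide as a random block, 0 members were called for sucrose at adequate copper, 0 for copper at 10% sucrose and 0 for the interaction. As a block, slide gave every member an adjusted p of 0.9998 for sucrose at adequate copper. The second probe of Nr1h4 had that value too, at an unadjusted limma p of 0.0474. The share of all genes called with slide in the fit is not given here. On the authors' values 1 member was called for sucrose at adequate copper (Cyp8b1), 0 for copper at 10% sucrose and 0 for the interaction, and after quantile normalization 0 for the interaction. The single call for copper at 10% sucrose (Baat) was also lost, leaving 0, with normexp, quantile normalization, no filter, a filter on all arrays, the replicate block, only the groups compared, and without both rats that stood apart, a setting chosen after seeing the data. Leaving out 1 rat gave 0 to 2 calls for copper at 10% sucrose and 1 to 2 for the interaction. With the replicate block Cyp8b1 and Baat kept their sucrose differences of -1.35 and -0.40 (adjusted p = 0.00775 and 0.0133), and the block changed no call other than that of Baat for copper at 10% sucrose. Some differences that were not called turned sign, and the cause was not tested. Those printed next are a selection, shortened after the sign changes had been seen. Left out are, for example, Abcb4 for both changes (-0.30, and 0.39 with slide as a block) and Nr0b2 for copper at 30% sucrose (-0.43, and 0.27 with slide as a block). For sucrose at adequate copper, slide as a block gave -0.23 for Cyp7b1, 0.039 for Abcb11 and -0.18 for Nr0b2, and slide as a random block -0.0050 for Cyp7b1. Leaving out 1 rat gave -0.16 to 0.32 for Cyp7b1 and -0.15 to 0.29 for Abcb4, and leaving out both rats that stood apart -0.16 for Cyp7b1. For copper at 10% sucrose, leaving out 1 rat gave -0.53 to 0.31 for Cyp7a1 and -0.092 to 0.58 for Nr0b2, slide as a block gave -0.61 for Nr0b2, and leaving out both rats -0.092. For both changes, slide as a block gave 0.11 for Cyp8b1. Over all 80 member differences in the 8 comparisons, 42 turned sign under at least 1 alternative, none of them among the 4 called. Cyp7a1 was well above background in 22 of 24 rats and the other members in all 24. The fits of the pathway genes without each rat were added after seeing the data.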
